A study of Mus musculus with 2 samples.

Results

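Prostaglandin E2 (PGE2) acts on colon through 4 receptors, EP1 to EP4, and the last of them was the gene targeted in these mice. The genes described here are the 4 receptors (Ptger1, Ptger2, Ptger3 and Ptger4), the cyclooxygenases (Ptgs1 and Ptgs2), the PGE2 synthases (Ptges, Ptges2 and Ptges3) and the enzyme that inactivates PGE2 (Hpgd). They were chosen by function, because EP4 is the deleted receptor, with earlier results of these data known. All 10 were on the array, with 14 probes, among 22909 genes that could be named.

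RNA of whole colon was measured on 2 one-colour Agilent mouse expression arrays, 1 for each genotype. The control mice carried Villin-Cre alone, and the EP4 cKO mice were Villin-Cre; EP4flox/flox. All were on the strain C57BL/6 and, by the methods, 8 weeks old, and neither label names a treatment. Both genotypes therefore carried the Cre transgene, which the Villin promoter drives in intestinal epithelium. The deletion was thus aimed at epithelium, not at immune, stromal, muscle or vascular cells. For each array, RNA from 3 pools of colon was mixed. With 1 array a genotype, no test was made, and the spread between mice is unknown. The errors printed are those of the scanner software for single spots of 1 hybridization.

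PGE2 is made from arachidonic acid, which cyclooxygenases turn into the unstable intermediate PGH2 and terminal synthases then turn into PGE2. EP2 and EP4 couple to Gs and raise cyclic AMP, EP3 mainly couples to Gi and lowers it, and EP1 acts through calcium. In the intestine PGE2 is known for its part in mucosal protection, epithelial renewal and inflammation, and 15-hydroxyprostaglandin dehydrogenase, the product of Hpgd, ends its action.

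The arrays were comparable only after scaling. The trimmed mean of the probes was 724 with Villin-Cre and 931 on the EP4 cKO-labelled array, and both were brought to 2500. Of 56593 gene probes, 45.4% were well above background with Villin-Cre and 51.6% on the EP4 cKO-labelled array, so dim genes were seen more readily on the latter. The median log2 ratio of all 14679 genes with a value was −0.10, and each log2 ratio below is EP4 cKO over Villin-Cre on the normalized signal. The whole epithelial marker list was above background, 11 of 11 genes.

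Ptger4, the targeted receptor, was not lower on the EP4 cKO-labelled array by either probe beyond the software error. The brighter probe, filed under 1 of the transcript variants, read 6227 ± 624 with Villin-Cre and 5661 ± 566 on the EP4 cKO-labelled array. That is a log2 ratio of −0.14 ± 0.20, and the errors of the 2 readings overlap. The dimmer probe, filed under another variant, read 393 ± 49.4 and 592 ± 60.8, a log2 ratio of 0.59 ± 0.23, or 1.51-fold higher, and from 0.61 to 1.65 under the other scalings. The 2 probes of the targeted gene thus went opposite ways (the brighter one read 0.02 with the 75th percentile and 0.92 with the E1A control spots), and their log2 ratios differed by 0.73. Among 4103 genes with several probes above background on both arrays the median difference between probes was 0.19, and 385 of them (9.38%) differed by at least as much as Ptger4. Whether either probe is specific to its variant was not determined here.

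These readings neither check nor contradict the label. By the drawing of the locus, exon 2 of 3 is floxed, and where the probes lie relative to it was not determined here. Whether they bind a transcript without that exon was not tested. Whole colon also holds cells in which the Villin promoter is not active, and in bulk tissue fewer cells of a type cannot be told apart from less RNA per cell. The second array is therefore called by its label throughout.

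Ptger3, the receptor that lowers cyclic AMP, was nearly level between the arrays. Its brighter probe read 471 ± 54.7 with Villin-Cre and 441 ± 45.9 on the EP4 cKO-labelled array, a log2 ratio of −0.10 ± 0.23. Its second probe read 115 ± 32.2, not well above background, and 102 ± 17.2, which was, and gives no fold. The errors overlap for both probes.

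The other 2 receptors could not be compared. The probe of Ptger1, the calcium-linked receptor, read 31.9 ± 31.9 and 14.9 ± 15.0 on the Villin-Cre array and the EP4 cKO-labelled array. The probe of Ptger2, the other receptor that raises cyclic AMP, read 26.8 ± 26.8 and 16.7 ± 12.3. None of these 4 readings was well above background, so whether these transcripts differed was not detectable at this signal. Of the 4 receptor genes, then, only Ptger3 and Ptger4 were measured on both arrays.

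**Figure D1:**
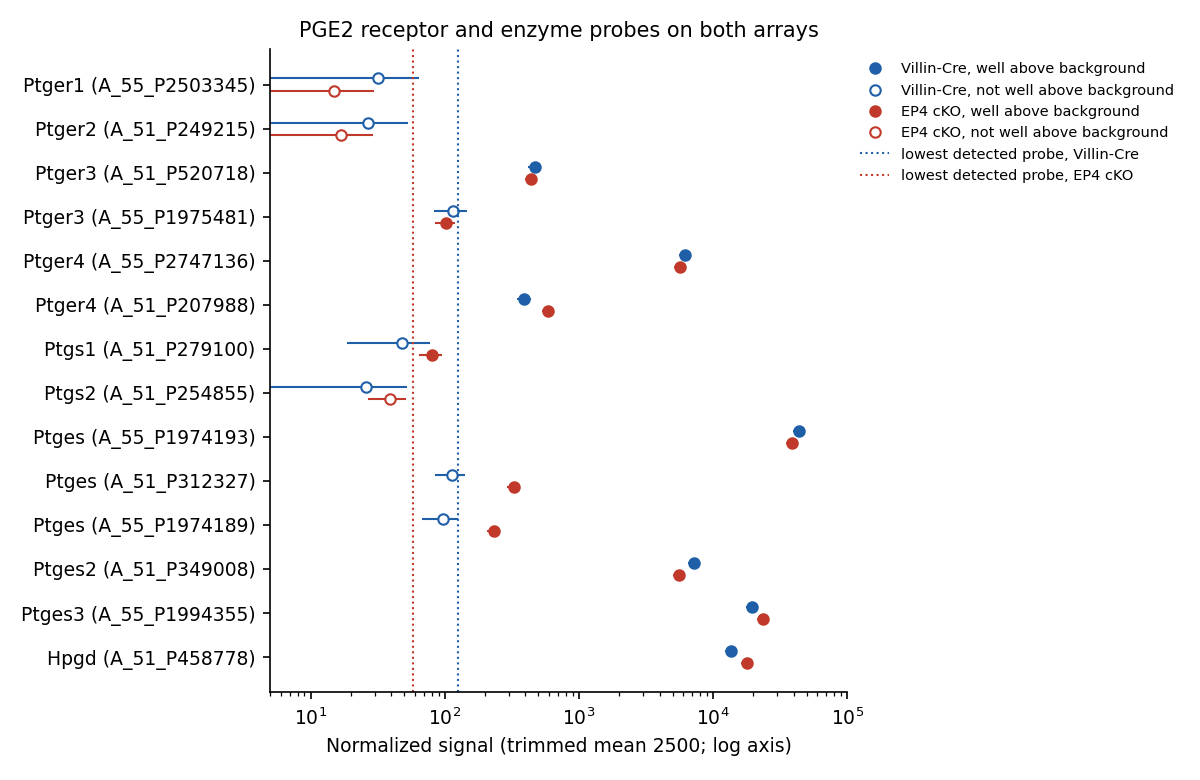
Normalized signal (log axis, trimmed mean 2500) of each of the 14 probes of the PGE2 genes on each array, with open symbols where the probe was not well above background and bars for the scanner software's error (a lower bar that passes 0 runs off the left edge). The bars of both arrays overlap for the brighter Ptger4 probe at 6227 and 5661, while the 2 dimmer Ptges probes are well above background only on the EP4 cKO-labelled array.

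The cyclooxygenases gave almost no information. Ptgs1, the constitutive cyclooxygenase, read 48.1 ± 29.5 on the Villin-Cre array, where it was not well above background, and 80.0 ± 15.4 on the EP4 cKO-labelled array, where it was. A probe measured on 1 array only gives a bound, with its dim side held at no less than the lowest signal that counted as above background there, which was 125 with Villin-Cre and 57.8 on the EP4 cKO-labelled array. As 80.0 lies under 125, no fold can be given for Ptgs1, and its log2 ratio was counted as 0. Ptgs2, the inducible cyclooxygenase that inflammatory signals raise, read 26.0 ± 26.0 and 39.2 ± 12.4, above background on neither array. No statement on either direction of Ptgs2 rests on these readings.

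All 3 terminal synthases were measured on both arrays. Ptges, the microsomal synthase that is usually induced together with Ptgs2, read 43986 ± 4399 with Villin-Cre and 38795 ± 3880 on the EP4 cKO-labelled array with its brightest probe, a log2 ratio of −0.18 ± 0.20. The other 2 probes of Ptges were above background on 1 array only. One read 114 ± 29.0, not well above background, and 327 ± 34.9, which is at least 2.61-fold higher on the EP4 cKO-labelled array. The other read 96.4 ± 29.1, not well above background, and 232 ± 26.5, at least 1.85-fold higher. The first of these was the one probe past 2-fold among the 11 probes of the PGE2 genes that gave a value, and its bound fell to 0.93 on the log2 scale with normexp. The second passed 2-fold with the 75th percentile (1.05), loess (1.46), the E1A control spots (1.94) and no filter on dim probes (1.27). Over all 30126 probes with a value, 3.99% passed 2-fold upward and 8.58% downward, and no probe of the PGE2 genes passed it downward. The bounds of the 2 dimmer Ptges probes could not have gone downward, but they could have come out as 0. They thus differ from the −0.18 of the probe measured on both arrays, and as the mean of all probes Ptges read 0.70. Which probe reads Ptges better was not tested.

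On the trimmed-mean scaling Ptges2 had the lowest log2 ratio of the genes in the group with a value. It is the membrane-associated synthase whose processed form is found in the cytosol. It read 7175 ± 718 with Villin-Cre and 5589 ± 559 on the EP4 cKO-labelled array, a log2 ratio of −0.36 ± 0.20, or 1.28-fold lower. Ptges3, the cytosolic synthase also known as the Hsp90 co-chaperone p23, read 19607 ± 1961 and 23713 ± 2371, a log2 ratio of 0.27 ± 0.20, or 1.21-fold higher. The error bars of the readings overlap for Ptges3, and for Ptges2 they separate by less than the size of the bars. The reference holds a pseudogene, Ptges3-ps, whose transcripts could share the Ptges3 probe.

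Hpgd had the highest log2 ratio of the group by the brightest probe of each gene. The enzyme oxidises PGE2 to its inactive keto form and is abundant in differentiated colon epithelium. The Hpgd probe read 13592 ± 1359 with Villin-Cre and 17863 ± 1786 on the EP4 cKO-labelled array, a log2 ratio of 0.39 ± 0.20, or 1.31-fold higher. The error bars of the 2 readings do not overlap. Among all genes with a value, 85.0% had a lower log2 ratio than Hpgd and 80.3% a lower one than Ptges3. At the other end, 30.4% were lower than Ptges2.

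**Figure D2:**
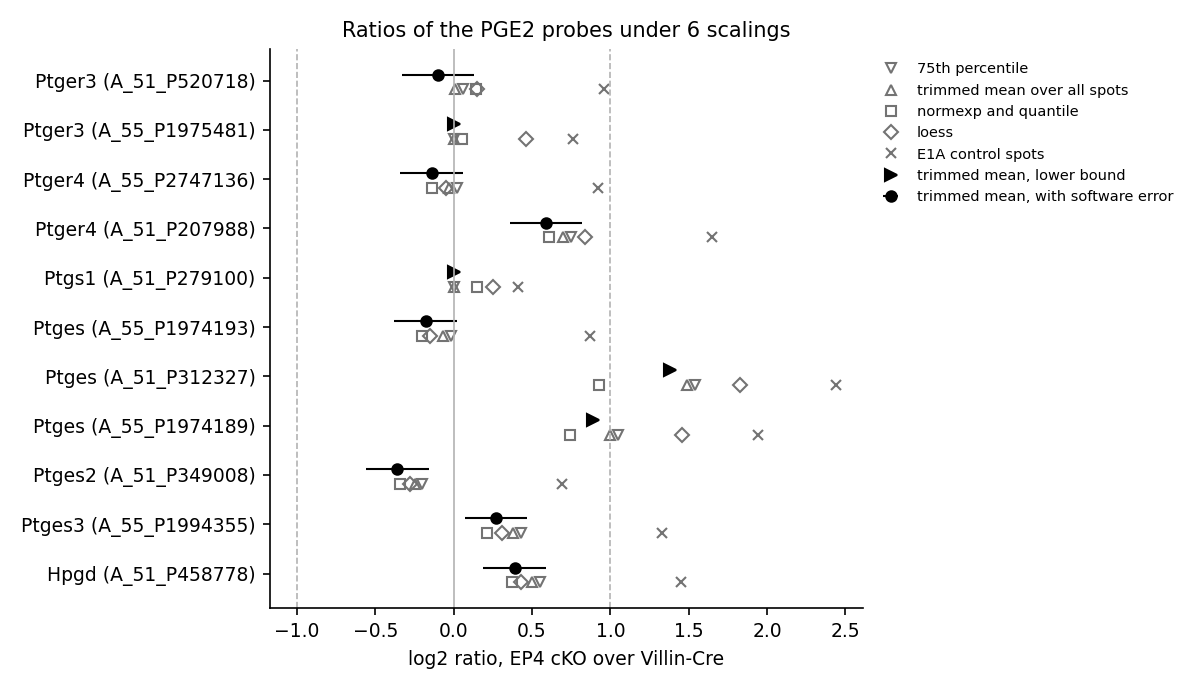
Log2 ratio (EP4 cKO over Villin-Cre) of each probe of the PGE2 genes that gave a value, with the scanner software's error for probes measured on both arrays, bounds for probes above background on 1 array (also where grey), and grey markers for the other scalings and normalizations. The values for Hpgd (0.39) and Ptges3 (0.27) stay above 0 under each scaling drawn, and the 2 Ptger4 probes lie at −0.14 and 0.59.

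On the trimmed-mean scaling the 6 PGE2 genes measured on both arrays stayed within 2-fold by their brightest probes. Of the 10 genes, 6 were measured on both arrays and 1 (Ptgs1) gave only a bound, counted as 0. The other 3 were above background on neither array (Ptger1, Ptger2 and Ptgs2). None of the 7 genes with a value passed 2-fold in either direction, where 4.88% of all genes with a value passed 2-fold upward and 7.98% downward. A count of 0 among 7 genes is no result about the group beside such shares. Their log2 ratios ran from −0.36 to 0.39 with a median of −0.10, and the median of all genes was also −0.10. Over the 6 genes measured on both arrays the median was −0.12, against −0.15 over all genes measured on both.

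By the brightest probe of each gene, the order of the 6 log2 ratios was Hpgd, Ptges3, Ptger3, Ptger4, Ptges and Ptges2. Only 1 step in that order was larger than the software's error of the step, the one from Ptges3 to Ptger3, at 0.37 with an error of 0.30. The steps from Hpgd to Ptges3 (0.12), from Ptger3 to Ptger4 (0.04), from Ptger4 to Ptges (0.04) and from Ptges to Ptges2 (0.18) were smaller than their errors of 0.29 to 0.30. Neighbours other than Ptges3 and Ptger3 thus do not differ beyond the error of their spots. As the mean of all probes Ptges read 0.70, above Hpgd at 0.39, so the order holds for the brightest probes only.

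Hpgd and Ptges3 stayed above the median of all genes under each way of processing tried, but few of these could have changed that. Scaling an array by a constant moves all probes measured on both arrays alike. The filters on dim probes leave the log2 ratios of both genes as they are. Only normexp and loess treat probes differently, and there Hpgd lay 0.37 and 0.40 above the median and Ptges3 0.21 and 0.27. With the brightest probe set against the median of all genes under the same setting, Hpgd was above it in 8 of 8 settings, by 0.37 to 0.76, and Ptges3 in 8 of 8, by 0.21 to 0.64. Ptges2 was above it in 1 of 8, between −0.34 and 0.01. The brighter Ptger4 probe was above it in 4 of 8, between −0.14 and 0.23, so no direction can be given for it relative to other genes. Ptger3 was above it in 7 of 8, by at most 0.27. Without that reference the sign depended on the scaling, since Ptger4 read 0.02 with the 75th percentile, Ptger3 0.06 with it and 0.14 with normexp, and Ptges2 0.69 with the E1A control spots, which moved the median of all genes up by 0.99.

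Several cell type markers differed between the arrays by more than any PGE2 gene did. Of the 8 fibroblast markers 7 had a value, and Pdgfra was above background on neither array. All 7 were more than 2-fold lower on the EP4 cKO-labelled array, against 7.98% of all genes, with log2 ratios from −5.77 to −1.09. Of these, Col1a1, Col3a1 and Lum were above background only with Villin-Cre and give bounds that could not have gone upward. The 4 measured on both arrays had a median of −3.19. The summed signal of the list was 13765 against 575. Dcn, a matrix proteoglycan of fibroblasts, read 6006 and 110. Of the 6 mast cell markers 4 were more than 2-fold higher, against 4.88% of all genes, and 3 of these (Cpa3, Mcpt1 and Mcpt2) were above background only on the EP4 cKO-labelled array. The mast cell protease Mcpt1 was at least 78.9-fold higher. The summed signal of the list was 3731 with Villin-Cre and 15288 on the EP4 cKO-labelled array, where most of it was Mcpt1 (9897). Kit, the receptor tyrosine kinase of mast cells, went the other way, from 2616 to 1604 (−0.71), and the median over the 2 markers measured on both arrays was 0.17.

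The epithelial markers had a median log2 ratio of 0.32 and a summed signal of 2110377 against 2781818. Of the 11, 1 was more than 2-fold higher (Krt20, 1.80), against 4.88% of all genes, and none lower, against 7.98%. Macrophage markers had a median of 0.00, which rests on C1qa and C1qc counted as 0, and one of 0.12 over the 4 measured on both arrays. T cell markers had a median of −0.01, or −0.03 over the 5 measured on both. In each list 1 gene was more than 2-fold higher, of 7 and of 6 with a value, against 4.88% of all genes, a count too small to read, and the macrophage gene (Mrc1) was above background only on the EP4 cKO-labelled array. Tuft cells, an epithelial source of prostaglandins, had 3 of 5 markers on the array above background. Their median of 0.02 rests on bounds for Dclk1 and Pou2f3. The sums include readings not above background, which with Villin-Cre were all but that of Avil. The summed signal was 632 against 1202. Most of that difference was Avil (353 and 907, a log2 ratio of 1.36), the one marker measured on both arrays, while Dclk1 read 139.9 and 142.3. Fibroblasts, mast cells, macrophages and epithelium can each express genes of the PGE2 pathway, so the readings above come from tissue samples of unlike marker content. The part of these differences in the log2 ratios of Ptger4, Hpgd and the other PGE2 genes was not tested.

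In the wider prostanoid pathway 6 genes passed 2-fold, most of them higher on the EP4 cKO-labelled array. Of 38 other genes of arachidonic acid release, other prostanoids and the lipoxygenase branch, 37 were on the array and 25 had a value. Of these 25, 5 were more than 2-fold higher, against 4.88% of all genes, and 1 was more than 2-fold lower, against 7.98%. Pla2g4c, one of the 5, was above background only on the EP4 cKO-labelled array and could not have read lower. With only probes above background on both arrays, 4 were higher, against 4.05% of all genes. The other 19 did not pass 2-fold, 3 of which (Alox5, Alox15 and Hpgds) gave only a lower bound. The median log2 ratio of the 25 was 0.43, or 0.17 over the 21 measured on both arrays.

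Of the 9 phospholipase A2 genes, which release arachidonic acid from membranes, 7 had a value and 2 were more than 2-fold higher by their brightest probe, against 4.88% of all genes. Pla2g5, a secreted form, read 4451 ± 446 with Villin-Cre and 11302 ± 1130 on the EP4 cKO-labelled array, a log2 ratio of 1.34 ± 0.20, and its second probe was at least 1.76-fold higher. Pla2g4c, a cytosolic form, read 27.9, not well above background, and 302, at least 2.41-fold higher, with its second probe at least 1.60-fold higher. A probe above background only on the EP4 cKO-labelled array cannot read lower. The direction of Pla2g4c, 1 of the 2 genes counted, was thus fixed, and the second probes are no independent support. Pla2g10, another secreted form, named for its strong signal, had a log2 ratio of 0.16. Others read lower: Pla2g6, a calcium-independent form, had −0.91 and −0.72 with its 2 probes, and Pla2g4b, a cytosolic form, −0.12 with its brighter probe and −1.01 ± 0.26 with its dimmer one, which is past 2-fold.

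Of the 8 genes for other prostanoid synthases, 6 had a value, with 2 past 2-fold upward, against 4.88% of all genes, and 1 downward, against 7.98%. A carbonyl reductase can reduce the keto group of PGE2 to give PGF2α, and which of those named below do so was not tested. Cbr3 read 26871 ± 2687 with Villin-Cre and 65019 ± 6502 on the EP4 cKO-labelled array, 2.42-fold higher. Cbr2 read 19446 ± 1945 and 43177 ± 4318, 2.22-fold higher, and its second probe was 2.40-fold higher. Cbr1, which like Akr1b3 was named for its strong signal, had a log2 ratio of 0.17, and Akr1b3, an aldose reductase that forms PGF2α, one of −0.16. Cbr2 and Cbr3 were therefore higher beyond their spot errors while their paralogue Cbr1 was not.

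Ptgis, the prostacyclin synthase of vascular and stromal cells, was the single gene of the pathway more than 2-fold lower by its brightest probe. It read 254 ± 36.8 with Villin-Cre and 107 ± 16.1 on the EP4 cKO-labelled array, a log2 ratio of −1.25 ± 0.30. It stayed past 2-fold in 5 of the 8 alternative settings. Among these, the other filters and the mean of all probes left it at −1.25, as they could not change it. The call was lost with normexp (−0.32), loess (−0.73) and the E1A control spots (−0.20). Its second probe was above background on neither array.

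The 4 genes of transport and reduction with a value had a median log2 ratio of 0.63. None was past 2-fold, against 4.88% of all genes upward and 7.98% downward, a count too small to read. Slco2a1, the transporter that carries PGE2 into cells before Hpgd oxidises it, read 9098 ± 910 with Villin-Cre and 17969 ± 1797 on the EP4 cKO-labelled array, a log2 ratio of 0.98 ± 0.20, just inside 2-fold, and passed 2-fold in 5 of 8 alternative settings. Abcc4, which exports PGE2, read 0.72, and the reductases Ptgr1 and Ptgr2, which act on the keto product of Hpgd, read 0.54 and −0.20. Slco2a1 was singled out after its value was seen, as was Alox5, the 5-lipoxygenase, whose bound of at least 1.98-fold higher also lay just inside and passed 2-fold in 5 of 7.

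The other prostanoid receptors were mostly not seen. Of 6 listed genes, 5 (Ptgdr, Ptgdr2, Ptgfr, Ptgir and Tbxa2r) were above background on neither array, as were Ptger1 and Ptger2. The sixth, Ptgfrn, a regulator of the PGF2α receptor rather than a receptor itself, had a log2 ratio of 0.52. In the lipoxygenase branch 7 of 10 genes had a value and 1 was more than 2-fold higher, against 4.88% of all genes, a count too small to read. That gene, Ltb4r1, the leukotriene B4 receptor of leukocytes, read 188 ± 36.2 and 708 ± 72.2, a log2 ratio of 1.91 (3.76-fold higher) that was 1.24 with normexp.

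**Figure D3:**
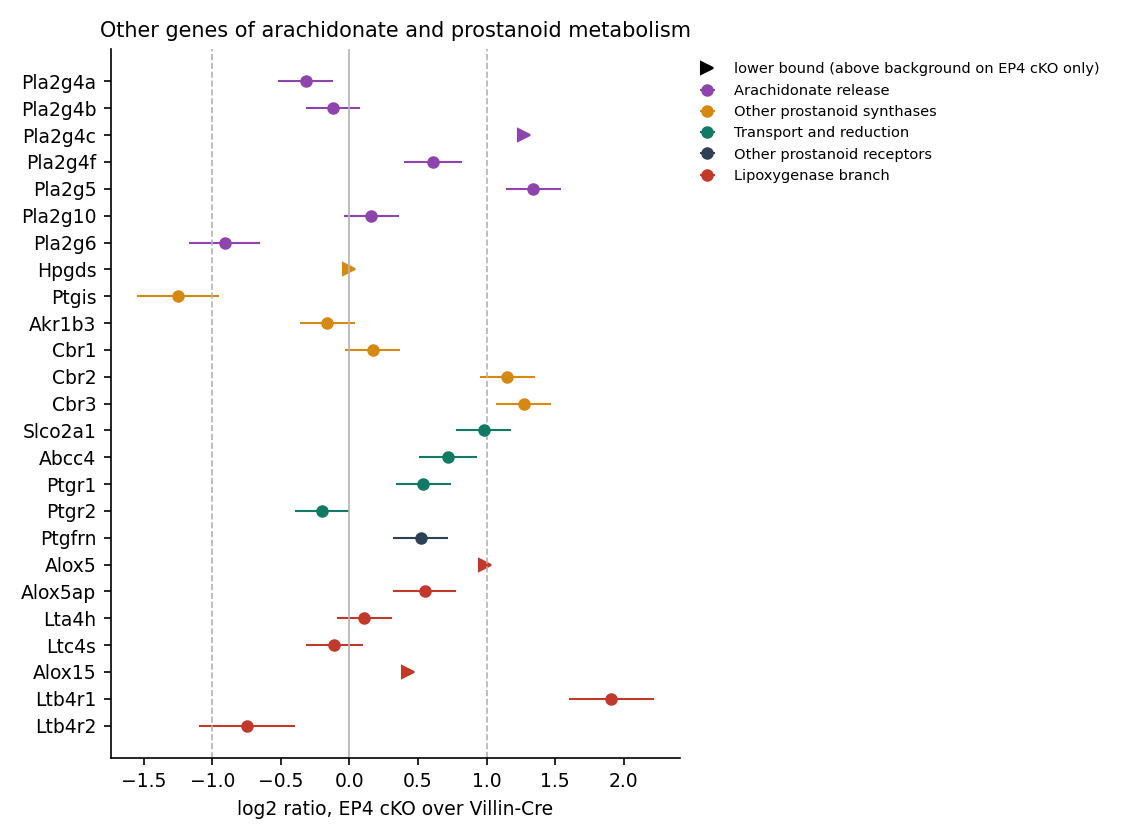
Log2 ratio (EP4 cKO over Villin-Cre) of the 25 other prostanoid and leukotriene genes with a value, coloured by branch, with the scanner software's error or a bound and the 2-fold limits as dashed lines. Pla2g4c, Pla2g5, Cbr2, Cbr3 and Ltb4r1 lie above the upper limit and Ptgis lies below the lower one.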

How the data were processed

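Colon RNA of each genotype (Villin-Cre, EP4 cKO) was hybridised to 1 of 2 Agilent arrays, and each sample was mapped from its labels. The authors deposited scanner intensities: background-subtracted and detrended processed signals, their errors, and flags (Feature Extraction 12.0.3.1 by the file headers, 11.5.1.1 by the labels). The labels give RNA combined from 3 pools per array and the methods give n = 3. The authors' scaling of each array to a trimmed mean of 2500 without 2% at each end was repeated here. Control and outlier spots (195) were left out and spots of a probe averaged, which the methods do not state. Probes were named by accession through RefSeq genes (GRCm38.p6), which matched 58.3% of them. The array grid refers to another build, so no position is given.

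The log2 ratio of a gene is that of its brightest probe. A probe above background on 1 array only gives a bound, a bound of 1 or less counts as 0, and a gene above background on neither has no value. The error of a log2 ratio combines the software's errors of both spots and leaves out mouse and array differences. Over 287 probes with repeated spots the median SD of the log2 ratio was 0.0343.

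All PGE2 genes were named. Of other prostanoid genes those past 2-fold were named, and otherwise the 3 with the largest signal, while Slco2a1, Alox5, Ptgfrn, Pla2g4b, Pla2g6, Abcc4, Ptgr1, Ptgr2 and single markers beyond the most changed were named after their values were seen. Members and lists were chosen with earlier results of these data known. Marker lists covered epithelium, colon surface, goblet, tuft, fibroblast, smooth muscle, macrophage, T, B and plasma, endothelial, mast, and neuronal and glial cells. Alternatives were the 75th percentile, trimming over all spots, normexp (offset 50) with quantile normalization, loess (span 0.3), the E1A control spots, other filters on dim probes, the mean of all probes, and 1.5-fold and 3-fold thresholds. The calculation was tested on simulated data. Python 3.11.15, numpy 2.4.6, pandas 2.3.3, statsmodels 0.14.6, matplotlib 3.10.9, R 4.3.3 and limma 3.58.1 were used.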

Additional observations from a re-analysis of the deposited data

How the results depend on the processing

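No paired analysis was possible because each genotype had 1 array, and no sample could be left out. None of the 6 other prostanoid genes past 2-fold changed sign, while Ptger3, Ptger4, Ptges and Ptges2, all within 2-fold, did under at least 1 alternative. The log2 ratio of Ptger4 was 0.92 on the scale of the E1A control spots and 0.23 as the mean of all probes. That of Ptges was 0.87 and 0.70. The median of the PGE2 genes moved from −0.10 to 0.14 with normexp, 0.15 with loess, 0.92 with E1A and 0.23 with the mean of all probes. With E1A, 2 PGE2 genes (Hpgd and Ptges3) were more than 2-fold higher, against 40.6% of all genes, and without a filter 1 (Ptger1, at background) was more than 2-fold lower, against 31.7%. Of other prostanoid genes, the number higher (5) was 8 with loess, against 7.68% of all genes, and 17 with E1A, against 40.6%. It was 1 at 3-fold and 9 at 1.5-fold. The number lower (1) was 0 with normexp, loess and E1A, against 2.7%, 5.2% and 2.3% of all genes. It was 7 without a filter, against 31.7%, 0 at 3-fold and 3 at 1.5-fold. The cause was not tested.

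The balance of higher and lower genes moved with the processing. Of all genes more than 2-fold apart, 38.0% were higher (717 higher, 1171 lower). The share was 50.6% with the 75th percentile (942 and 921), 60.4% with normexp (603 and 396), 59.4% with loess (1127 and 769), 94.7% with E1A (5961 and 334) and 13.9% without a filter (1172 and 7253). The median of all genes moved by 0.99 with E1A. Alternatives for single other prostanoid genes were added after the data were seen. Pla2g5, Cbr2, Cbr3 and Ltb4r1 stayed past 2-fold in 8 of 8, Pla2g4c in 6 of 7 and Ptgis in 5 of 8. The call of Ptgis was lost with normexp, loess and E1A.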

Other observations

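Marker lists not described above were, by their median log2 ratio, smooth muscle at 0.38 (Cnn1, a contractile protein, was lower by −2.73 and Actg2 read 0.72), goblet cells at 0.22 (Clca1 1.31, Tff3 −0.75), B and plasma cells at 0.21, colon surface cells at 0.09 (the water channel Aqp8 was 2.004-fold higher, Slc26a3 read 0.41, Car4 0.09 and Car1 −0.42), endothelium at −0.18 with 1 of 5 genes above background, and neurons and glia at −0.82 with 3 of 7 (Uchl1 −1.43). In these lists 1 of 5 smooth muscle genes and 1 of 3 neuronal and glial genes were more than 2-fold lower, and 1 of 6 goblet and 1 of 5 surface genes more than 2-fold higher, against 7.98% lower and 4.88% higher among all genes, and single calls in lists this short are too few to read.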
